A study of Mus musculus with 6 samples.

Results

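Kinesins are motor proteins that walk along microtubules, and 41 of the 18160 genes measured in mouse prefrontal cortex carried a kinesin name, that is, a symbol made of Kif or Kifc and a number. Of these, 40 encode kinesin motors and 1, Kif1bp, encodes a protein that binds the KIF1 motors and is no motor itself. The motors were sorted by their known roles into 16 of axonal and dendritic transport, 13 of mitosis, 6 of cilia and centrioles and 5 others. Kif2b and Kif12 were also looked for and were not analysed here.

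The cortex came from C57BL/6J mice at postnatal day 56, as 3 wild-type samples and 3 samples labelled as CYFIP2 heterozygotes. CYFIP2 belongs to the WAVE complex, which promotes branched actin, and the comparison asks which mRNAs differ between wild-type and heterozygous cortex. The labels name no transgene, Cre driver or treatment, do not describe how the allele was made, and leave unsaid whether each sample is its own animal. Each p-value therefore measures the spread between these samples, which may be technical.

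Most kinesins carry their motor domain at the N-terminus and move toward the plus ends of microtubules, which point outward in axons, while kinesin-14 motors carry it at the C-terminus. Neurons depend on them to bring vesicles, mitochondria and RNA granules from the cell body to synapses and dendrites. A separate set of kinesins builds the spindle and completes cell division, and most cells of the adult cortex no longer divide.

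Cyfip2 itself, the check of the labels, was at 45454, 43174 and 45627 normalized counts in wild-type samples 1, 2 and 3 and at 28356, 28578 and 29567 in the heterozygous samples, in the same order, which is kept for all values below. It fell to 64.4% of wild type, with a log2 fold change of -0.63 ± 0.05 (SE; limma-trend, adjusted p = 0.00269). Without the variance trend the fold change was the same and the adjusted p by limma was 0.146, so the call was lost. Normalized counts are read estimates scaled between samples, and their totals were nearly equal, at 36.4 to 37.1 M (M, 1e+06) per sample. The steps between the lowest values imply roughly 27.2 to 48.0 M reads per sample. All 5 neuronal markers were present, and none of the marker genes of other cell types stood at 0 in all samples. In bulk tissue, fewer cells of a type and less RNA per cell cannot be told apart.

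The kinesin mRNA pool of this tissue was almost wholly made of transport motors. Counted per kilobase of the longest coding transcript, so that genes of different length can be compared, transport kinesins made up 97.2% ± 0.157 of the summed level of all 40 motors in wild-type samples and 97.3% ± 0.12 in heterozygous samples (SD, n = 3 each). Mitotic kinesins made up 0.25% ± 0.0123 and 0.245% ± 0.00884. Kif5a alone held 41.5% ± 2.41 in wild type and 41.3% ± 1.31 in heterozygotes. Its 23830 normalized counts per kilobase placed it above 99.8% of the 16532 coding genes with a known length. At the other end, Kif18b, Kif28 and Kif2c, named here because they did not reach a mean of 10, had means of 1.12, 1.20 and 1.63 normalized counts per kilobase. A count of 3 reads was worth about 2.31 to 4.08 normalized counts in these libraries, so their group means of 3.17 to 6.07 normalized counts rest on a handful of reads.

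**Figure D1:**
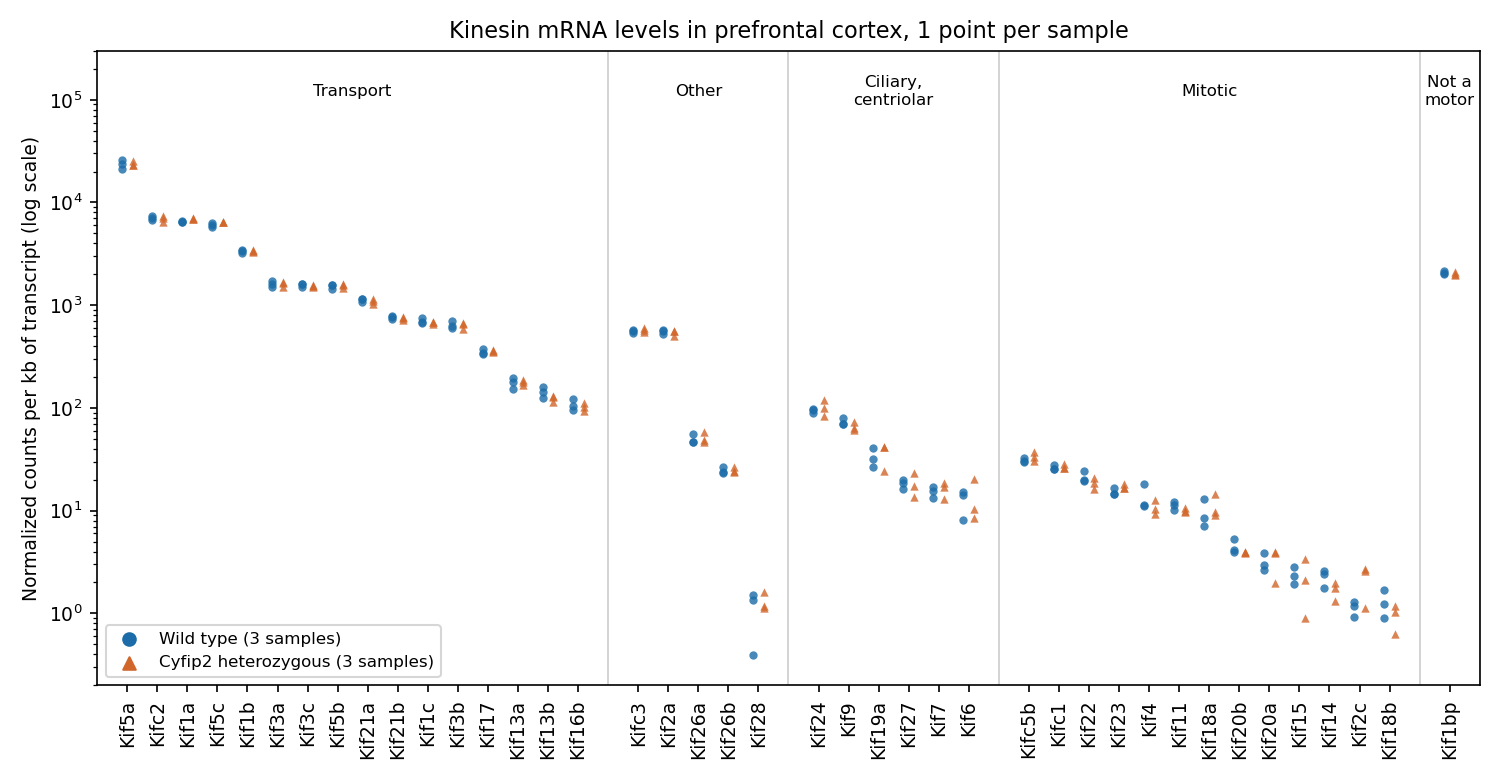
Normalized counts per kilobase of transcript (log axis) for each of the 41 genes, with 1 point per sample, circles for wild type and triangles for Cyfip2 heterozygotes, grouped by role. Transport motors span from about Kif5a at 23830 down to Kif16b at 105, and no mitotic motor has a mean above that of Kifc5b, 32.3.

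The promoters of the mitotic and the transport motors differed in their letters, given here as counts with no test. The cell cycle genes homology region (CHR, letters TTTGAA, counted on both strands) is the element through which the DREAM complex represses mitotic genes in resting cells. It was searched in RefSeq promoter windows of 300 bases on GRCm38.p6, from 250 before to 50 after the start. Of 12 mitotic promoters, 11 held it, against 1 of 13 transport promoters and 17.9% of all 32817 promoters in the table. Kif18a, which aligns chromosomes, was the mitotic motor without it, and the transport promoter with it belonged to the downstream of the 2 starts of Kif1a. A range of 30 bases around the start, chosen after the positions were seen, held a CHR in 9 of the 12 mitotic promoters, in none of the 13 transport promoters and in 3.19% of all promoters. Windows were given for 31 of the 41 genes, and those of Kif5a, Kif5b, Kifc2, Kif13b, Kif21b, Kif20a, Kif19a, Kifc3, Kif28 and Kif1bp were not analysed here. The stretches below run from 70 bases before to 30 after the start, 5′ to 3′ on the strand of the gene. Capitals mark the CHR in 6 mitotic motors: Kif11 and Kif15 push spindle poles apart, Kif20b and Kif23 act in cytokinesis, and Kif22 and Kif4 are chromokinesins that move chromosome arms.
Kif11 (chr19:37376312-37376411, plus strand): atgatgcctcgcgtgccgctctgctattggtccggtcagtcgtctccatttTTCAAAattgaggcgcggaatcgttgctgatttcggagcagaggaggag
Kif15 (chr9:122951011-122951110, plus strand): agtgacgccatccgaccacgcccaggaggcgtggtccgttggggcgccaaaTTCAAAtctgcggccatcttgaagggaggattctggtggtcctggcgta
Kif20b (chr19:34922288-34922387, plus strand): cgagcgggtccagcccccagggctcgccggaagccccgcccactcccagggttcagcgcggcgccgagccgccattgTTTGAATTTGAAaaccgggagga
Kif22 (chr7:127042391-127042490, minus strand): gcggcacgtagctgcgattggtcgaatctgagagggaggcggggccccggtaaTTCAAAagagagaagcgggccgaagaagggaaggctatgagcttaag
Kif23 (chr9:61946770-61946869, minus strand): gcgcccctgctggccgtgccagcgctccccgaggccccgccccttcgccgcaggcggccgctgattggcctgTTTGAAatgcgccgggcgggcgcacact
Kif4 (chrX:100625995-100626094, plus strand): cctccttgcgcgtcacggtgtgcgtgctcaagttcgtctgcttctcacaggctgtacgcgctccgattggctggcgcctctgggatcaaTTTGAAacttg
In Kif20b the CHR stood 2 times in direct succession, and in Kif11, Kif15 and Kif22 it was read on the opposite strand.

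The same stretch is shown for the transport motors Kif1a (its upstream start) and Kif5c, the neuronal motors described next. Here capitals mark the cAMP response element (CRE, TGACGTCA), which the CREB factors bind.
Kif1a (chr1:93101845-93101944, minus strand): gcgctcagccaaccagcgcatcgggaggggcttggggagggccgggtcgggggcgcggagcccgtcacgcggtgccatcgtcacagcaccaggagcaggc
Kif5c (chr2:49619216-49619315, plus strand): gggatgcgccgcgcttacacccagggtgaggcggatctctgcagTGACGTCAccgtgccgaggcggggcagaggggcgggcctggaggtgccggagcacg
Kif5c held a CRE, as did Kif17, and Kif18a among mitotic motors, against 1.79% of all promoters. The window of Kif17 lay inside the gene, downstream of its outermost annotated start, as did the mitotic windows of Kif14, Kif2c and Kif4. The window of Kif1a shown held none of the 5 motifs searched, which also included the GC box (GGGCGG), the CCAAT box (CCAAT) and the TATA box (TATAAA). GC boxes stood in 10 of 13 transport and 6 of 12 mitotic promoters, against 35.6% of all promoters, and CCAAT boxes in 4 and 8, against 37.4%. The letters of the TATA box stood in 1 promoter of each class, against 13.6% of all. They began at position -220 from the start in the transport motor Kif5c and at -228 in the mitotic motor Kif2c. The 2 windows each of Kif1a and Kif1b were counted separately, and those of Kif1b overlap. Kifc1 and Kifc5b, which share much of their transcript sequence and both held a CHR, were also counted separately. These matches describe the letters only and were not tied to expression.

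**Figure D2:**
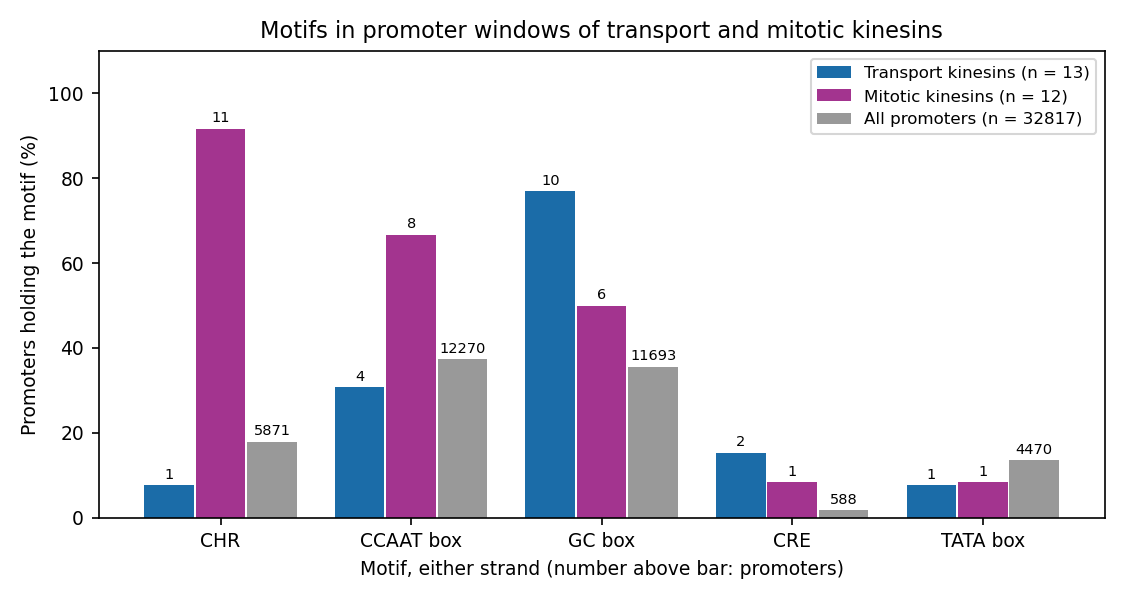
Share of promoter windows (%) that hold each of 5 motifs on either strand, for 13 transport and 12 mitotic kinesin promoters and for all 32817 promoters, with the number of promoters above each bar. The CHR stands in 11 mitotic promoters and 1 transport promoter.

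Of the 41 genes, 38 had a mean of at least 10 normalized counts and were tested, and none was called by limma-trend at an adjusted p under 0.05. Of all 15151 genes tested, 0.0132% were called, 0.0066% higher and 0.0066% lower in heterozygotes. None had an unadjusted p under 0.05 either, beside 5.07% of all tested genes, and limma without the trend also called none. With robust variance estimates Kif1a had an unadjusted p of 0.0456 by limma-trend, and without wild-type sample 1 Kif13b had 0.0115. In 3 of the 38 genes (7.89%), Kif1a, Kif5c and Kif23, the 3 heterozygous samples did not overlap the 3 wild-type samples, against 10.5% of all tested genes. All 3 lay higher in heterozygotes, where 5.15% of all tested genes did, and none lay lower, where 5.3% did. The smallest adjusted p of any kinesin was 0.948, that of Kif1a. Among the 37 tested motors, 20 had a positive and 17 a negative log2 fold change, and their median was 0.00, as it was over all tested genes.

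**Figure D3:**
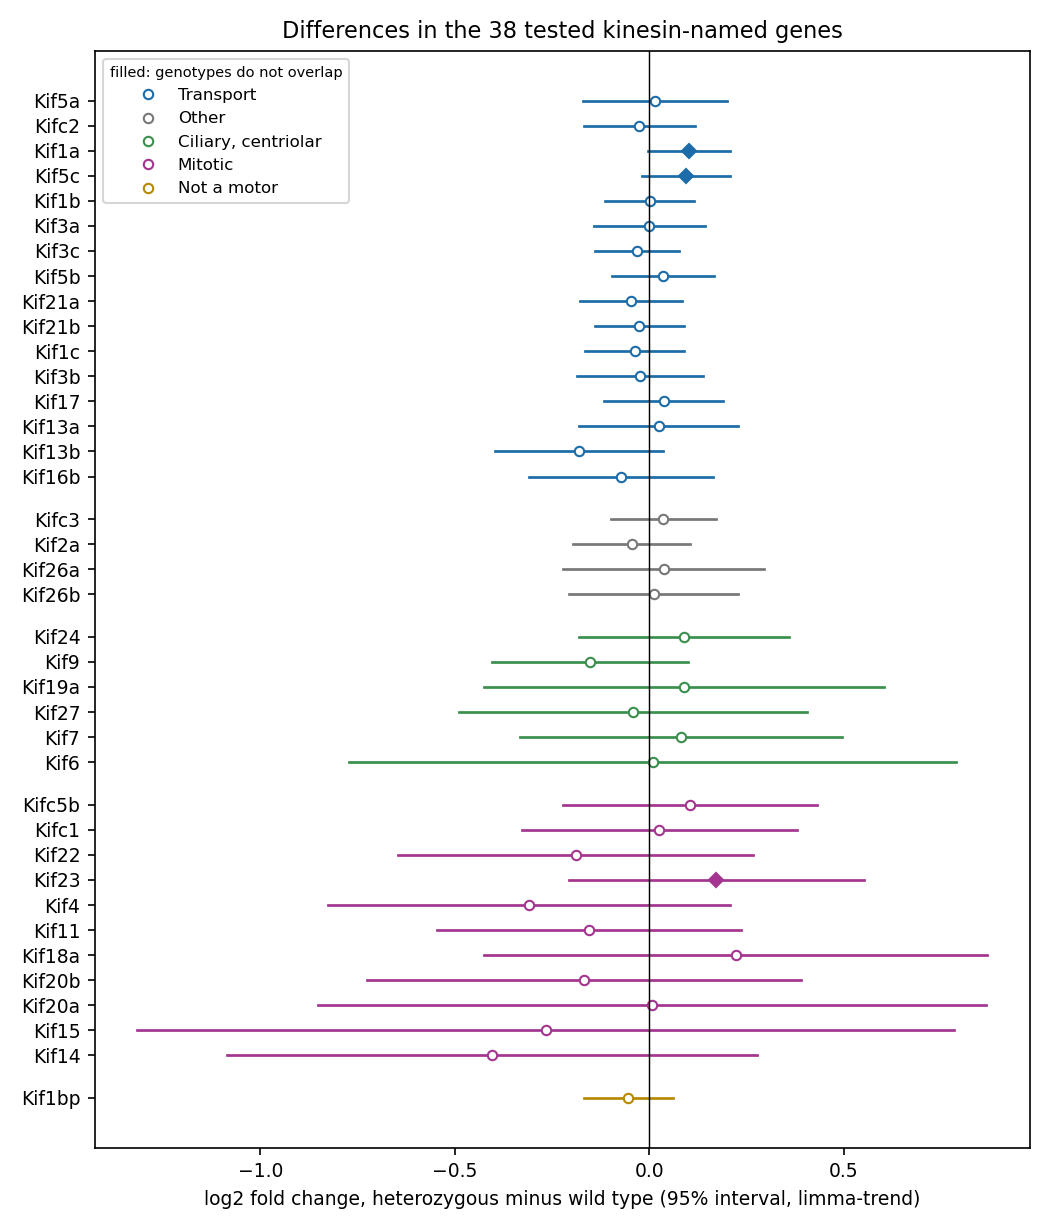
Log2 fold change of heterozygous minus wild-type samples with its 95% interval (limma-trend) for the 38 tested genes, grouped by role and ordered by level within each group; filled diamonds mark Kif1a, Kif5c and Kif23, whose genotypes did not overlap. All intervals include 0, and they widen from transport motors (median half-width 0.14) to mitotic ones (0.52).

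The kinesin-1 heavy chains KIF5A, KIF5B and KIF5C pair with light chains to carry mitochondria, vesicles and neurofilaments along axons and glutamate receptors into dendrites. Kif5a (chromosome 10, 127225696 to 127263348, GRCm38) was at 132752, 164862 and 150637 normalized counts in wild-type samples 1, 2 and 3 and at 146106, 161308 and 144382 in heterozygous samples 1, 2 and 3. The wild-type samples alone spanned the whole heterozygous range, with wild-type sample 1 the lowest and sample 2 the highest of the 6. In heterozygotes Kif5a was at 101% of its wild-type mean (95% interval 88.9% to 115%).

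Kif5c (chromosome 2, 49619298 to 49774778), a neuron-enriched form, was at 39896, 41205 and 43471 in wild-type samples 1, 2 and 3. It was at 44598, 44232 and 44170 in heterozygous samples 1, 2 and 3. The heterozygous values were nearly equal and all above wild type, by a margin of less than 2% over wild-type sample 3. The log2 fold change was 0.10 ± 0.05 (SE; limma-trend, adjusted p = 0.95). An exact two-sided permutation gave p = 0.1, the lowest possible with 3 against 3. That value follows from the lack of overlap and adds nothing to it. Kif5b, the form found in most cell types, was at 8636, 9426 and 9415 in wild type and at 9793, 9509 and 8846 in heterozygotes, and the genotypes overlapped.

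Within kinesin-1, per kilobase, Kif5a made up 75.7% ± 1.65 in wild type and 74.9% ± 1.13 in heterozygotes, and Kif5c 19.4% ± 1.43 and 20.3% ± 0.955 (SD, n = 3 each). Kif5b made up 4.86% ± 0.215 and 4.87% ± 0.269. The mix of the 3 heavy chains thus stayed within the spread of the samples for each of them.

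Kinesin-3 motors carry synaptic vesicle precursors, dense-core vesicles and endosomes, and Kif1a is the main member of neurons. Kif1a (chromosome 1, 93015464 to 93101951) was at 52487, 54187 and 53047 normalized counts in wild-type samples 1, 2 and 3 and at 56187, 58123 and 57166 in heterozygous samples 1, 2 and 3. All heterozygous values lay above all wild-type values, and the SD within each genotype was under 2% of the mean. The log2 fold change was 0.10 ± 0.05 (SE), or 107% of wild type with a 95% interval of 99.7% to 116%, and limma-trend gave an adjusted p of 0.948. When any 1 sample was left out, the log2 fold change stayed between 0.09 and 0.12. Kif1a passed the adjusted threshold under no alternative. Markers of neurons of the upper cortical layers summed to 24686 to 29845 normalized counts in the wild type and 21601 to 23389 in heterozygotes, and all 5 had a negative log2 fold change. Those of the deep layers summed to 4425 to 5198 and 5270 to 5348, and all 5 had a positive one. All 5 upper-layer markers had an unadjusted p under 0.05 by limma-trend, against 5.07% of all tested genes, and their median log2 fold change was -0.24. The 5 share the same 6 samples, and 2 of the 5 lay lower without overlap, beside 5.3% of all tested genes. Their mean deviation from the mean of all samples was -0.01 in wild-type sample 1 and 0.35 in sample 3 (log2). Of the deep-layer markers 1 had an unadjusted p under 0.05 by limma-trend, with a list median of 0.09. Of the 5 neuronal markers 2 had a positive and 3 a negative log2 fold change (median -0.07). Of these 5, 2 lay lower without overlap, against 5.3% of all tested genes, and 1 had an unadjusted p under 0.05 by limma-trend. None of these lists had a gene past the adjusted threshold, and their part in the Kif1a and Kif5c values was not tested.

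Kif1b, which carries mitochondria and vesicle precursors, was at 34401 ± 1424 in wild type and at 34424 ± 816 in heterozygotes (SD, n = 3 each). Its heterozygous level was 100% of wild type with an interval of 92.4% to 108%. Kif1c, a broadly expressed member, was at 4674 ± 266 and 4550 ± 120 (SD, n = 3 each). Kif13a and Kif16b, motors of endosomes, were at 1207 ± 145 and 688 ± 89.7 in wild type and at 1223 ± 67.2 and 652 ± 57.0 in heterozygotes (SD, n = 3 each). Both spread by over 10% within wild type, where sample 1 was the lowest and sample 2 the highest.

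Kif13b was the transport motor furthest below wild type. It was at 1098, 1408 and 1272 normalized counts in wild-type samples 1, 2 and 3 and at 1012, 1165 and 1144 in heterozygous samples 1, 2 and 3. Wild-type sample 1 lay among the heterozygous samples, so the genotypes overlapped. The log2 fold change was -0.18 ± 0.10 (SE; limma-trend, adjusted p = 0.95); it was -0.10 without wild-type sample 2 and -0.28 without wild-type sample 1, when the genotypes no longer overlapped. The 6 oligodendrocyte markers summed to 123500 to 172650 normalized counts in wild-type and 120062 to 128699 in heterozygous samples, with the highest sum in wild-type sample 2, and all 6 had a negative log2 fold change. The sums of the microglia, striatal and ependymal markers were also highest in wild-type sample 2, and that of the neuronal markers in wild-type sample 1. Astrocyte and meningeal sums were highest in heterozygous sample 1, and endothelial and oligodendrocyte precursor sums in heterozygous sample 2. The meningeal sums were 2061 to 2282 in wild-type and 2352 to 2669 in heterozygous samples. The part of these markers in the Kif13b difference was not tested.

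**Figure D4:**
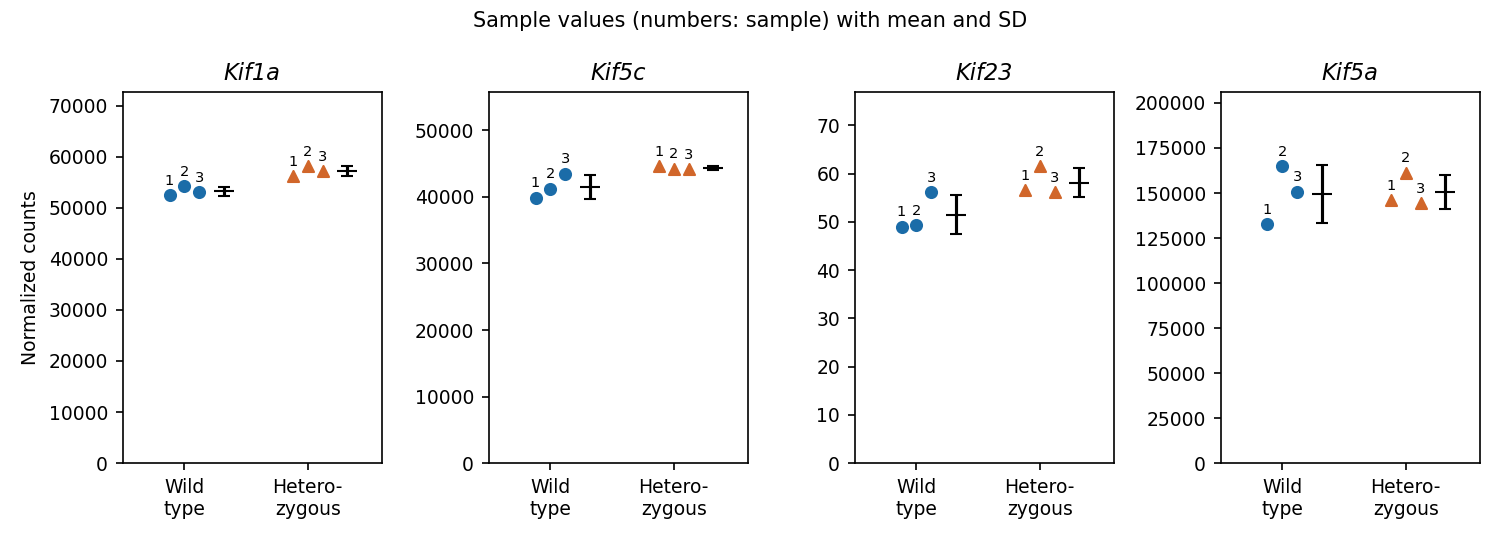
Normalized counts of Kif1a, Kif5c, Kif23 and Kif5a in each sample (numbers give the sample, circles wild type, triangles heterozygous), with mean and SD beside each group and axes that start at 0. Kif1a, Kif5c and Kif23 separate by genotype with small gaps, while the Kif5a samples of both genotypes intermingle.

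The kinesin-2 motors, among them the KIF3 dimers that drive axonal vesicles and ciliary transport, were near equal in both genotypes. Kif3a was at 5091 ± 320 normalized counts in the wild type and at 5090 ± 274 in heterozygotes, Kif3b at 3651 ± 302 and 3590 ± 218, and Kif3c at 10648 ± 324 and 10412 ± 227 (SD, n = 3 each). The intervals of the heterozygous level were 90.6% to 110% for Kif3a, 88.0% to 110% for Kif3b and 90.7% to 105% for Kif3c. Kif17, which carries NMDA receptors in dendrites, was at 1210 ± 83.2 and 1239 ± 27.6 (SD, n = 3 each). For each of Kif3a, Kif3b and Kif17, wild-type sample 1 held the highest value of the 6 samples.

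Among the other transport motors, Kifc2, a kinesin-14 of neurons, ranked with Kif1a and Kif5c, at 7031, 6727 and 6261 normalized counts per kilobase. Their order depends on the transcript length used, since by exon-union length Kif5c came first and Kifc2 last of these 3. Kifc2 was at 22817 ± 1191 normalized counts in the wild type and at 22433 ± 1542 in heterozygotes (SD, n = 3 each). Kif21a and Kif21b, kinesin-4 motors that restrain microtubule growth, were at 7254 ± 318 and 6915 ± 237 in wild type and at 7030 ± 384 and 6793 ± 198 in heterozygotes (SD, n = 3 each).

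Across the 16 transport motors, 8 had a positive and 8 a negative log2 fold change, with a median of -0.01 and a range of -0.18 to 0.10. Beside them, 50.8% of all tested genes were positive. The lowest bound of any 95% interval was 75.9% of wild type, for Kif13b, and the highest was 117%, for Kif13a. Less than 2% of the 31-base words of any transport motor also occurred in transcripts of another gene.

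**Figure D5:**
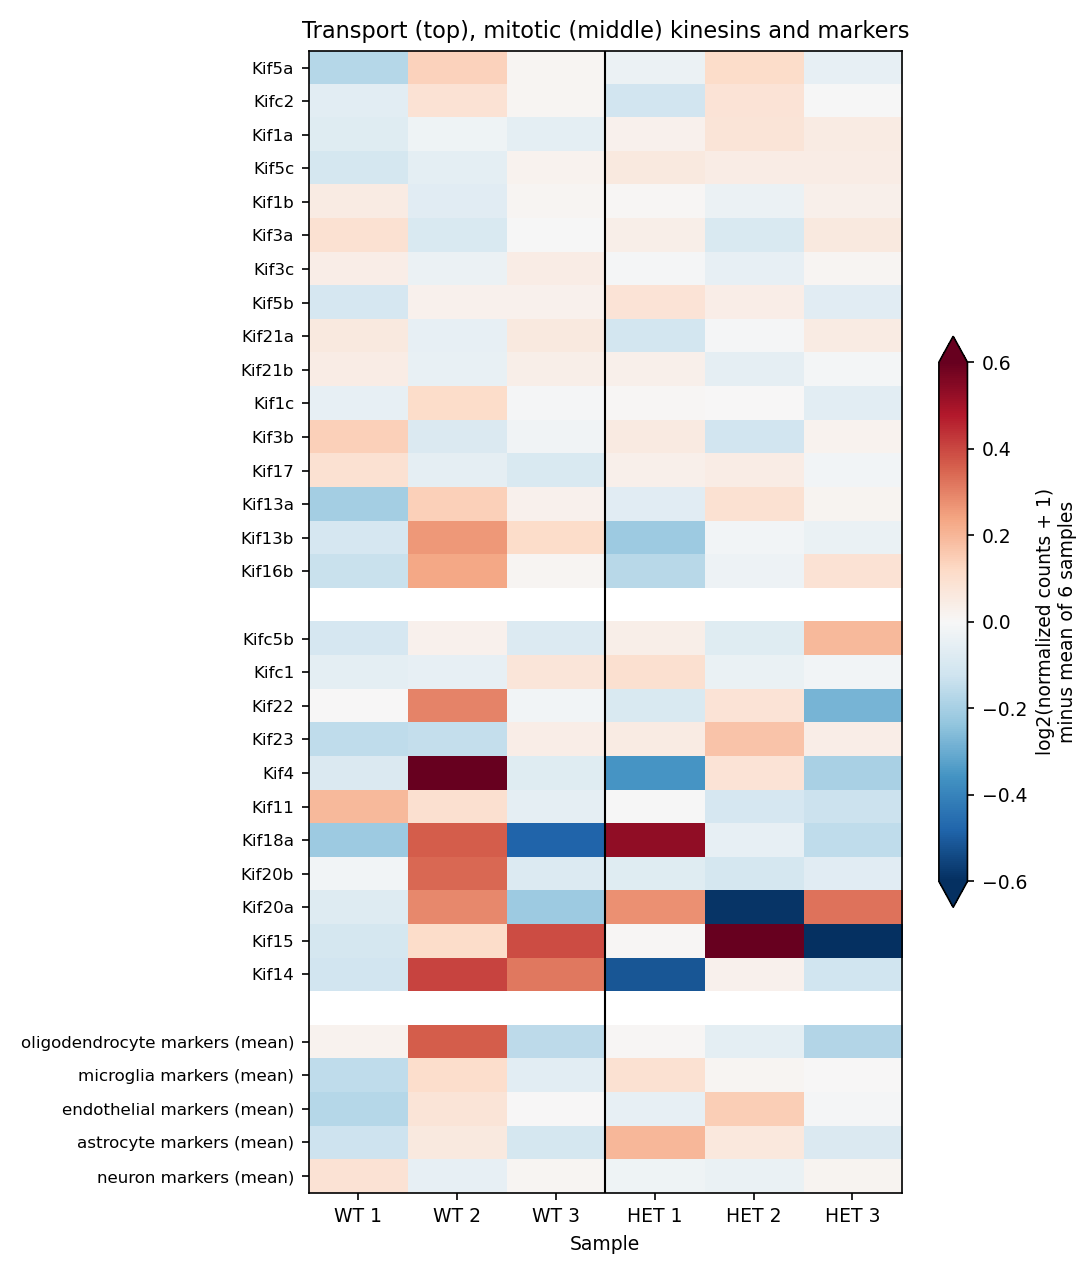
Each sample's log2(normalized counts + 1) minus the mean of the 6 samples, for the tested transport and mitotic kinesins and for the mean of 5 marker lists; red is above and blue below that mean. Most transport motors stay pale. Wild-type sample 2 is red for several mitotic motors and for the oligodendrocyte markers, and more faintly for the transport motors Kif13b and Kif16b.

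The mitotic kinesins were read from few counts. Among the 13 measured, 11 were tested, and their means ran from 10.9 normalized counts for Kif15 to 85.1 for Kifc5b. Kifc5b and Kifc1, minus-end motors that bundle spindle microtubules, had the highest means, but 51.6% and 57.2% of their 31-base words also occurred in other genes, mostly in each other. Their separate levels are therefore uncertain. Kifc5b was at 81.9 ± 3.85 normalized counts in the wild type and at 88.3 ± 8.27 in heterozygotes, and Kifc1 at 62.2 ± 3.22 and 63.4 ± 3.30 (SD, n = 3 each).

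Kif23, a motor of the central spindle whose CHR is shown above, lies on chromosome 9 (61915905 to 61946774). It was at 49.0, 49.3 and 56.1 normalized counts in wild-type samples 1, 2 and 3 and at 56.5, 61.5 and 56.2 in heterozygous samples 1, 2 and 3. The genotypes did not overlap, but wild-type sample 3 and heterozygous sample 3 were separated by a fraction of a normalized count. The log2 fold change was 0.17 ± 0.17 (SE; limma-trend, adjusted p = 0.972).

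Kif4 was at 55.5, 91.3 and 56.1 normalized counts in wild-type samples 1, 2 and 3 and at 45.9, 62.6 and 51.5 in heterozygous samples 1, 2 and 3. Wild-type sample 2 stood far above the other 5. Kif14, another motor of cytokinesis, was at 15.8, 23.1 and 21.7 in wild type and at 11.8, 17.5 and 15.7 in heterozygotes. Its genotypes overlapped through wild-type sample 1. The log2 fold changes were -0.31 ± 0.23 for Kif4 and -0.40 ± 0.30 for Kif14 (SE), with adjusted p values of 0.954 by limma-trend for both. The value of Kif4 was -0.08 without wild-type sample 2, and that of Kif14 was -0.25 without heterozygous sample 1.

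The other tested mitotic motors overlapped between genotypes as well. Kif11 was at 58.3, 54.5 and 48.9 normalized counts in wild-type and 50.8, 47.4 and 46.5 in heterozygous samples, with the highest values in wild-type samples 1 and 2. Kif22 was at 41.8, 51.6 and 41.4 and at 39.2, 44.3 and 34.3, and Kif20b at 23.0, 29.8 and 21.9 and at 22.0, 21.5 and 22.1. Both were highest in wild-type sample 2, as Kif4 and Kif14 were. Kif18a was at 28.8, 43.6 and 23.8 in wild type and at 49.2, 32.5 and 30.2 in heterozygotes, with its highest value in heterozygous sample 1. Kif15 and Kif20a, the latter a motor of the midzone in anaphase, had the lowest means of those tested, 10.9 and 11.8, and each genotype of both spread over 19% of its mean or more. The log2 fold changes of these 6 ran from -0.27 for Kif15 to 0.22 for Kif18a.

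Of the 11 tested mitotic motors, 5 had a positive and 6 a negative log2 fold change, with a median of -0.15 beside 0.00 over all tested genes. The median was -0.04 without wild-type sample 2, which held the highest value for 5 of the 13 mitotic motors. Without heterozygous sample 2 the median was -0.05, over the 10 motors that still reached a mean of 10. It was 0.03 over the 5 motors with a mean of at least 50. In wild-type sample 2 the mean of the 6 oligodendrocyte markers was 0.36 above the mean of the 6 samples on the log2 scale. In that sample the markers of ependymal and motile cilia stood at 0.54, striatal ones at 0.41 and oligodendrocyte precursor ones at 0.16. The neuronal markers stood at -0.05. The part of these markers in the mitotic median was not tested. The 95% intervals had half-widths of 0.33 to 1.05 on the log2 scale. A difference smaller than a gene's own half-width could not reach an unadjusted p of 0.05 by limma-trend. Larger differences could also go uncalled, since calls used the adjusted p.

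Among 16 other genes of proliferating cells, such as Mki67 and Top2a, 13 were tested, 4 had a positive log2 fold change, and none passed. Their median was -0.06, but 0.08 without wild-type sample 2, when 14 were tested. Pcna and Mcm2, replication factors with the highest means, were at 1153 ± 8.08 and 146 ± 16.4 in wild type and at 1268 ± 111 and 174 ± 18.3 in heterozygotes (SD, n = 3 each). Birc5, the survivin gene of the chromosomal passenger complex, was at 30.5, 25.1 and 29.2 normalized counts in the wild type and at 48.7, 41.8 and 43.7 in heterozygotes. Its genotypes did not overlap, with a log2 fold change of 0.65 ± 0.21 (SE; limma-trend, adjusted p = 0.88). Of the 13 tested genes, 1 lay higher and 1 lower without overlap, beside 5.15% and 5.3% of all tested genes. Their log2 fold changes ran from -0.53 to 0.65, and 9 were negative.

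The 6 kinesins of cilia and centrioles had means of 12.8 to 97.9 normalized counts per kilobase. Kif24, a centriolar kinesin that restrains cilium assembly, was the most abundant per kilobase, at 532, 504 and 549 normalized counts in the wild type and at 674, 557 and 470 in heterozygotes 1, 2 and 3. The heterozygous samples thus lay on both sides of wild type. Kif9, a kinesin of motile cilia, was at 234 ± 19.9 and 210 ± 17.5, and Kif19a, which trims ciliary microtubules, at 114 ± 24.7 and 123 ± 33.8 (wild type and heterozygous, SD, n = 3 each). Kif7, a regulator of Hedgehog signalling at the cilium tip, was at 69.7 ± 8.26 and 74.3 ± 13.1, and Kif27, its paralogue, at 93.9 ± 10.3 and 92.9 ± 24.6 (SD, n = 3 each). Kif6 was at 49.9, 53.5 and 28.9 in wild type and at 29.8, 36.3 and 72.4 in heterozygotes, with both its lowest and its highest value in a sample numbered 3. In all, 4 of the 6 had a positive log2 fold change, with a median of 0.05. The count was 2 of 6 without wild-type sample 3 (median -0.04) or without heterozygous sample 2 (median -0.03). The 6 markers of ependymal and motile cilia summed to 185 to 236 normalized counts in wild-type and 170 to 208 in heterozygous samples.

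Of the 5 other motors, Kif2a, a microtubule depolymerase that prunes axon branches, was at 2937 ± 165 in wild type and at 2847 ± 179 in heterozygotes. Kifc3, a minus-end motor, was at 1893 ± 68.7 and 1941 ± 84.6, and Kif26a, a kinesin that lacks motor activity, at 344 ± 37.4 and 354 ± 41.8 (SD, n = 3 each). Kif26b, its paralogue, was at 338 ± 25.95 and 341 ± 22.7 (SD, n = 3 each). The 4 tested had log2 fold changes of -0.05 to 0.04, of which 3 were positive, but 1 without wild-type sample 1. Kif1bp was at 5491 ± 176 and 5291 ± 158 (SD, n = 3 each), with a log2 fold change of -0.05 ± 0.05 (SE).

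The partners of kinesins gave no call either. Of 34 light chains, adaptors and cargo linkers tested, 15 had a positive log2 fold change and none passed, with a median of -0.03, which was 0.00 without wild-type sample 3 or heterozygous sample 2. In 6 of the 34 the samples of both genotypes were fully separate, with 2 higher and 4 lower in heterozygotes, beside 5.15% and 5.3% of all tested genes. Klc1, the main neuronal light chain, was at 23306 ± 508 in wild type and at 23994 ± 629 in heterozygotes, and Clstn1, a cargo adaptor of light chains, at 64608 ± 1330 and 61162 ± 1359 (SD, n = 3 each); all heterozygous values of Clstn1 lay below wild type. Ppfia3, a liprin that binds KIF1A, was at 8858, 9509 and 9314 normalized counts in the wild type and at 10587, 11693 and 10406 in heterozygotes 1, 2 and 3. Its genotypes did not overlap, with a log2 fold change of 0.24 ± 0.06 (SE; limma-trend, adjusted p = 0.727). Adap1, a partner of KIF13B, was at 9278, 9492 and 9821 in wild type and at 9150, 8815 and 8735 in heterozygotes. Its genotypes did not overlap either, and its log2 fold change was -0.10 ± 0.05 (SE).

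Dynein, the motor of the opposite direction, was read from 26 genes of dynein, dynactin and their regulators, of which 21 had a positive log2 fold change and none passed. That count rested on heterozygous sample 1, without which 13 of 26 were positive and the median went from 0.03 to 0.00. Dync1h1, the dynein heavy chain, was at 42330 normalized counts in that sample, against 27864 and 30491 in heterozygous samples 2 and 3 and 27160 to 29743 in wild type, and its log2 fold change of 0.20 ± 0.13 (SE) was 0.02 without it. Dynll2, a dynein light chain, was at 26655 ± 331 in wild type and at 26915 ± 1182 in heterozygotes, and Dctn3, a dynactin subunit, at 2064 ± 136 and 1913 ± 74.4 (SD, n = 3 each). Hook1, an activating adaptor of dynein, was at 2878, 2728 and 2964 in wild type and at 3187, 3276 and 3121 in heterozygotes. Its genotypes did not overlap, with a log2 fold change of 0.16 ± 0.06 (SE; limma-trend, adjusted p = 0.914). Hook1 was the only 1 of the 26 genes without overlap, beside 10.5% of all tested genes.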

How the data were processed

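RNA of 6 prefrontal cortex samples was sequenced after preparation with a stranded mRNA kit, per the labels' protocols. The deposited signal is a normalized count per gene, never raw counts; Salmon 0.11.2, R 3.6.0, DESeq2 1.19.11 and GRCm38 stand in the submitters' processing notes, with no roles given. In each sample 80.6% to 86.3% of the lowest values lay within 0.1 of a whole multiple of 1 step, taken as 1 read. The step was read from the lowest values only, so no count model was used and depths are estimates.

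GENCODE symbols matched 18122 of 18160 identifiers. With limma 3.58.1 (R 4.3.3), log2(value + 1) was fitted on genotype alone with a variance trend, for genes with a mean of at least 10, and p-values were adjusted over all 15151 by Benjamini-Hochberg, with 0.05 as the threshold. This scale understates changes of low genes. The design had named an edgeR test for raw counts, which was not run. The method was tested on simulated data first. Lengths, positions and 31-base words came from GENCODE M21 (GRCm38). Splitting of reads between overlapping or antisense genes could not be checked.

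The members and lists were chosen with earlier results of these data known. Genes named were Cyfip2, every transport motor, from each other motor class the 3 highest means and 2 smallest p, every non-overlapping kinesin, and from each partner list and the proliferation list the 2 highest means and 2 smallest p. All other kinesins were named after their values were seen. Alternatives were a trimmed-mean (TMM) rescaling, other variance models, filters and pseudocounts, a block on the sample number, and omission of single samples.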

Additional observations from a re-analysis of the deposited data

How the results depend on the processing

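No kinesin passed an adjusted p of 0.05 under any alternative, nor at a threshold of 0.1; the smallest adjusted p was 0.447, for Kif1a with the sample number as a replicate block. Under that block 2 of all tested genes passed, as without it, and Kif1a, Kif5c and Kif13b had an unadjusted p under 0.05 by limma-trend. Correlations of same-numbered samples were 0.132, 0.124 and -0.00517, and those of different-numbered samples ran from -0.164 to 0.046. Samples 1 and 2 thus correlated best with their own number and samples 3 did not. The labels name no pairs, and the numbers were not taken as pairs. Of all tested genes, 1 passed by limma without the trend, 1 with a mean of at least 50, and 1 to 4 when 1 sample was left out (4 without wild-type sample 1 or heterozygous sample 3, 1 without heterozygous sample 1). Cyfip2 kept its log2 fold change of -0.63 without the trend, at an adjusted p of 0.146; over all alternatives this p lay between 0.000846 and 0.146. Between 5 and 10 kinesins did not overlap when 1 sample was left out, which fewer samples allow by construction (13.2% to 26.3%, against 17.5% to 24.0% of all tested genes). The mitotic median was 0.027 with a mean of at least 50, where 5 motors remained, and -0.17 to -0.036 with 1 sample left out; the transport median was -0.021 to 0.010. Log2 fold changes near 0 changed sign when 1 sample was left out and ranged over -0.067 to 0.089 for Kif5a, -0.0071 to 0.077 for Kif5b, -0.072 to 0.042 for Kif3b, -0.072 to 0.10 for Kif13a, -0.057 to 0.13 for Kif26a, -0.073 to 0.026 for Kifc2, -0.045 to 0.045 for Kif3a, -0.16 to 0.026 for Kif16b, -0.031 to 0.027 for Kif1b, -0.071 to 0.0078 for Kif1c, -0.048 to 0.34 for Kif19a, -0.015 to 0.068 for Kifc1, -0.043 to 0.22 for Kif24, -0.023 to 0.035 for Dynll2 and -0.091 to 0.0079 for Kif2a; no direction is claimed for these genes.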
